A study of Mus musculus with 72 samples.

Results

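The genes described here are 9 genes of oligodendrocytes, the cells that make the myelin sheath of the brain, measured in the suprachiasmatic nucleus (SCN), the small cell group of the hypothalamus that serves as the master circadian clock. They were chosen by symbol: Gpr17 and Bcas1, which mark cells on the way from precursor to myelinating oligodendrocyte, and Mbp, Mog, Mag, Mobp, Cnp, Mal and Opalin, which encode proteins of myelin and mature oligodendrocytes. All 9 were found among the 15759 genes of the SCN count table, and 6 of them among the 22823 genes of the liver table, where Mog, Mobp and Opalin were not listed.

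The mice were C57BL/6 animals, 8 to 12 weeks old and housed singly, that ate either a diet lacking methionine and choline (MCD) or its isocaloric control diet for 11 days. They spent 10 days under a light-dark cycle and day 11 in constant darkness, and were killed at circadian times (CT) 0, 4, 8, 12, 16 and 20 h. Each group of one diet and one time had 3 SCN libraries and 3 liver libraries, 2 from males and 1 from a female, so each tissue had 36 libraries. The SCN was cut by laser from 23 sections of 25 µm, stained with toluidine blue, and its poly(A) RNA was sequenced, so a value covers every cell type in the cut tissue. No group carried a transgene or a deletion. The protocol text speaks of male mice only, while the labels give 12 female libraries per tissue; the labels were followed.

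Oligodendrocytes arise from dividing precursor cells. Precursors that commit to differentiate switch on Gpr17, a G protein-coupled receptor that holds cells at a stage before myelination and is switched off as they mature, and Bcas1, a protein of early myelinating cells that persists in young myelin. Mature cells then make compact myelin with myelin basic protein (Mbp) and Mobp, the surface proteins Mog and Mag, the cytoplasmic enzyme Cnp, and the membrane proteins Mal and Opalin. Methionine supplies the methyl groups of S-adenosylmethionine and choline is the head group of phosphatidylcholine, so both nutrients feed the lipid and methylation chemistry on which membranes such as myelin draw.

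SCN libraries held 23347789 to 79812461 counts (median 57026932) and liver libraries 52600280 to 86740552 counts. All 12 SCN neuron markers were in the SCN table (Avp, Vip, Grp, Nms, Prok2 and others), and their summed level was 2024 to 3682 CPM (counts per 1000000 counts of the library, after TMM scaling) on control diet and 2154 to 4709 CPM on MCD. Of 10 markers of other hypothalamic neurons 6 were listed, with a summed level of 109 to 304 CPM over all libraries; Pmch, Hcrt, Crh and Agrp were not in the table. Of 6 Schwann cell markers, the cells that make myelin outside the brain, only Prx and Pmp22 were listed, together at 6.31 to 18.2 CPM. The labels do not say that replicates came from separate litters or days, so p-values measure the spread between these libraries.

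The 9 genes spanned a wide range of levels. Per kilobase of exon, Mbp was the most abundant at 98.7 ± 19.2 CPM per kb (SD, n = 36), followed by Mobp at 44.5 ± 10.5 and Cnp at 38.3 ± 6.12 CPM per kb. Mal stood at 25.7 ± 3.41, Bcas1 at 19.8 ± 4.45, Mog at 9.28 ± 2.20, Mag at 6.55 ± 1.29, Gpr17 at 6.14 ± 1.49 and Opalin at 2.19 ± 0.814 CPM per kb. Neighbours in this order whose ranges of 1 SD met were Mobp and Cnp, Mal and Bcas1, Mog and Mag, and Mag and Gpr17; the other neighbours stood farther apart than that. Exon lengths came from the GRCm38 annotation and the deposited counts were made on GRCm39, so these are approximate levels. Over single libraries the highest value was 1.94 times the lowest for Mal, 2.50 times for Gpr17 and 4.18 times for Opalin, the least abundant gene, with 116 to 650 counts per library.

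**Figure D1:**
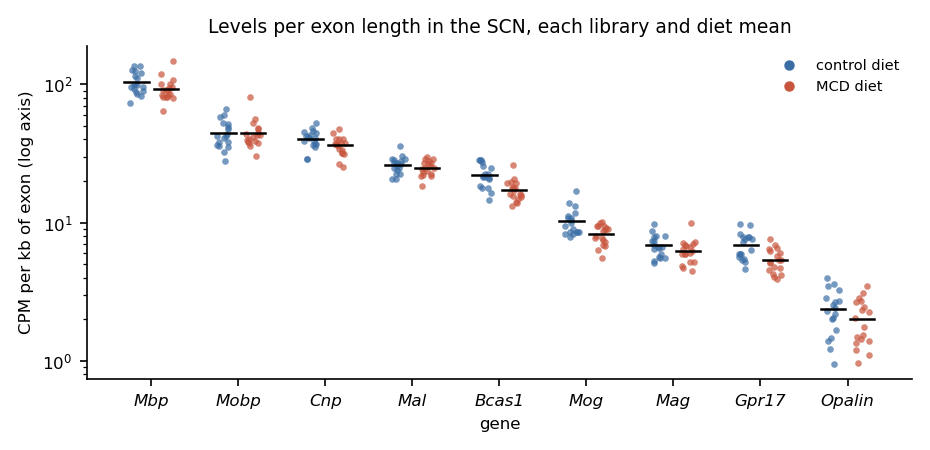
Level of each of the 9 genes per kb of exon in the SCN (CPM per kb, log axis), one point per library, control diet in blue and MCD in red, with the diet mean as a black bar. Mbp sits highest at a mean of 98.7 CPM per kb and Opalin lowest at 2.19 CPM per kb, and the points of the diets overlap for every gene.

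The first question was how the diet changed these genes in the SCN. Gpr17, the receptor of committed precursors, was the only member that passed the test: it fell from 35.8 ± 7.77 CPM on control diet (SD, n = 18) to 28.0 ± 5.55 CPM on MCD (n = 18), a log2 change of -0.34 ± 0.06 (SE; adjusted p = 0.00408, edgeR's quasi-likelihood test over all genes with Benjamini-Hochberg adjustment). It ranked 3 of 15759 genes by p, among 10 genes called, or 0.0635% of those tested; 4 genes, or 0.0254%, were called lower on MCD. The fitted change of the other 8 members was also below 0, from -0.36 for Bcas1 to -0.01 for Mobp, whose sign turned in 14 of 46 alternative fits, none of them another scaling; none of those 8 passed the test. Across all genes 48.3% had a fitted change below 0, with a median of 0.00. In bulk tissue, fewer cells of a type and less RNA per cell cannot be told apart.

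Library by library, Gpr17 at CT0 measured 39.5, 40.7 and 31.0 CPM on control diet and 26.9, 25.0 and 21.9 CPM on MCD. At CT16 the controls measured 49.6, 43.1 and 50.7 CPM and the MCD libraries 34.0, 30.0 and 33.3 CPM, and at CT20 they measured 39.2, 40.8 and 37.5 CPM against 24.4, 27.8 and 27.8 CPM. At these 3 times every MCD library lay below every control library. Such a separation was found for 5.33% of all genes at CT0, 3.07% at CT16 and 3.96% at CT20, and for 0.247% at 3 or more of the 6 times. At CT4 the controls measured 28.2, 29.3 and 30.7 CPM and the MCD libraries 31.5, 21.1 and 23.6 CPM. At CT8 they measured 28.0, 26.9 and 24.0 CPM against 21.9, 20.2 and 26.6 CPM, and at CT12 they measured 33.1, 40.6 and 30.9 CPM against 39.7, 35.6 and 32.5 CPM. The diets overlapped at those times, and at CT12 the MCD mean was the higher of the pair, 35.96 ± 3.61 against 34.9 ± 5.11 CPM (n = 3 each). Over the day, 16 of 18 MCD libraries lay below the control median and 5 lay below the lowest control library.

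**Figure D2:**
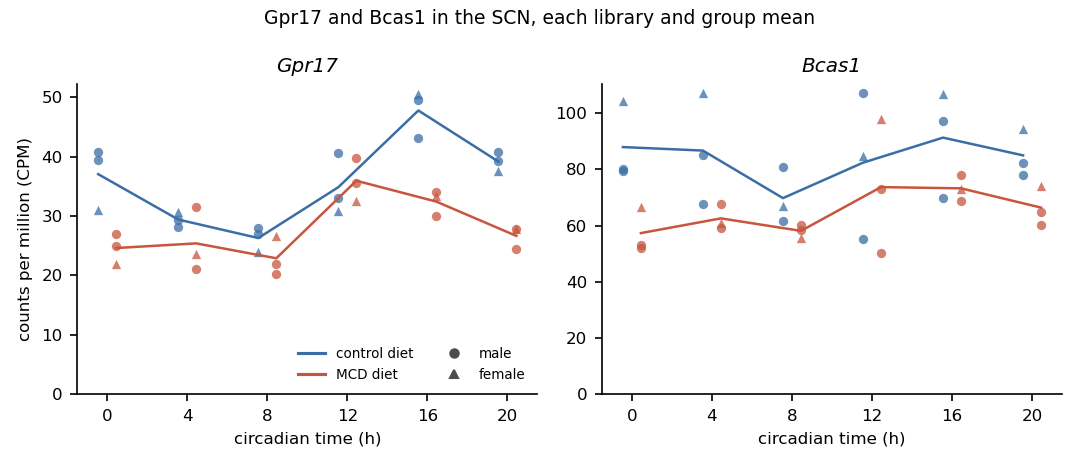
Gpr17 and Bcas1 in the SCN by circadian time (CPM on a linear axis from 0), one symbol per library (circles male, triangles female), control diet in blue and MCD in red, lines through the group means of 3 libraries. The MCD libraries of Gpr17 lie below all controls at CT0, CT16 and CT20 and mix with them at CT12.

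Taken one time at a time, the fitted log2 change of Gpr17 was -0.59 ± 0.14 (SE) at CT0, -0.56 ± 0.14 at CT16 and -0.55 ± 0.14 at CT20, against -0.21 at CT4, -0.20 at CT8 and 0.05 at CT12. None of these passed the test (edgeR, adjusted p = 0.185 at CT0, 1 at CT16 and 0.323 at CT20), nor did any other member at any time. Over all genes, the share called at a single time was 0.00635% at CT0, CT16 and CT20, 0.0444% at CT4 and 0.0% at CT8 and CT12. At an unadjusted p under 0.05, 2 members were counted at CT0 (Gpr17 and Bcas1), 1 at CT4 (Bcas1), 0 at CT8, 1 at CT12 (Mog), 2 at CT16 (Gpr17 and Cnp) and 1 at CT20 (Gpr17), beside 282 of all genes at CT8 to 1016 at CT20. DESeq2, run as an alternative, called Gpr17 at CT0. Whether the diet effect itself depended on time was asked with an interaction of diet and time, which by edgeR called 0 of the 9 members and 0.0127% of all genes. Gpr17 was the only member under an unadjusted p of 0.05 in that test (adjusted p = 1.00 by edgeR), and DESeq2 called none.

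Bcas1, grouped above with Gpr17, had a fitted change of similar size with a larger SE. Within groups of diet and time Bcas1 followed Mbp (r = 0.92) and not Gpr17 (r = -0.12). It measured 83.9 ± 16.3 CPM on control diet and 65.2 ± 11.5 CPM on MCD (SD, n = 18 each), a log2 change of -0.36 ± 0.07 (SE), which missed the threshold (edgeR, adjusted p = 0.0543, rank 11 of all genes). At CT0 the controls measured 80.2, 79.5 and 104 CPM and the MCD libraries 53.1, 52.2 and 66.7 CPM. All MCD libraries lay below all controls at 4 of the 6 times (CT0, CT4, CT8 and CT20). Of all genes, 3.9% were so separated at CT4, 4.89% at CT8 and 4.74% at CT12, and 0.0381% at 4 or more times. At CT12 the diets overlapped almost fully, with controls at 55.2, 107 and 84.7 CPM and MCD libraries at 50.1, 73.2 and 97.8 CPM. The call on Bcas1 turned on how the data were handled: its adjusted p was 0.00131 with DESeq2 and 0.0279 when libraries were scaled by their totals alone. Leaving out 1 library at a time moved its adjusted p between 0.00963 and 0.122, with 5 of 36 such fits under 0.05.

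Among the myelin genes, Mog, a surface protein of the outermost myelin layer, measured 17.6 ± 4.11 CPM on control diet and 13.99 ± 2.23 CPM on MCD (SD, n = 18 each), with a fitted log2 change of -0.34 ± 0.09 (SE) and adjusted p = 0.332 by edgeR. Its MCD libraries ran from 9.49 to 17.3 CPM (median 14.2) and its controls from 13.4 to 28.9 CPM (median 16.6). Thus 8 of 18 controls lay above the highest MCD library and 8 of 18 MCD libraries below the lowest control. Both counts were the highest among the 9 members, and the share of all genes that reach them was not counted. At CT0 and CT20 all MCD libraries of Mog lay below all controls, as they did for 5.33% and 3.96% of all genes. Cnp, an enzyme of non-compact myelin, measured 147 ± 21.98 against 132 ± 20.3 CPM, a change of -0.16 ± 0.05 (adjusted p = 0.448). Opalin, a membrane protein of mature oligodendrocytes, measured 6.98 ± 2.52 against 5.91 ± 2.21 CPM, a change of -0.29 ± 0.15 (adjusted p = 1). For Cnp 2 controls lay above the highest MCD library and 2 MCD libraries below the lowest control, and for Opalin 2 and 0. None of these 3 genes passed the test.

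Mbp, which binds the inner faces of the myelin membrane together, measured 882 ± 160 CPM on control diet and 789 ± 156 CPM on MCD, with a fitted log2 change of -0.16 ± 0.08. Mag, the adhesion protein next to the axon, measured 27.9 ± 5.18 against 25.4 ± 5.13 CPM, a change of -0.13 ± 0.08. Mal, a raft protein of compact myelin, measured 73.1 ± 10.3 against 69.6 ± 8.52 CPM, a change of -0.07 ± 0.06. Mobp, another basic protein of compact myelin, measured 305 ± 70.9 CPM on control diet and 304.5 ± 75.3 CPM on MCD, a change of -0.01 ± 0.11. For these 4 genes the diet means differed by less than 1 SD of either group, and each adjusted p was 1.00 by edgeR.

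**Figure D3:**
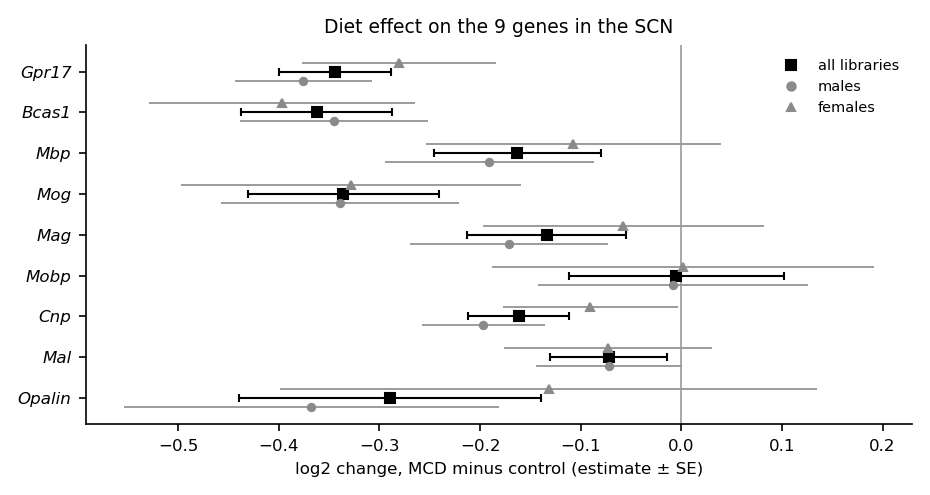
Fitted log2 change of each of the 9 genes in the SCN, MCD minus control, with its SE (squares all 36 libraries, circles males, triangles females). Gpr17, Bcas1 and Mog lie farthest from 0 at -0.34, -0.36 and -0.34, Mobp lies at -0.01, and for every gene the male and female intervals overlap.

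The wider lineage was taken from 4 lists of related genes, none of which had a gene called for diet. Beside them, 48.3% of all 15759 genes were fitted lower and 746 were under an unadjusted p of 0.05 (edgeR). Of 16 precursor genes, 9 were fitted lower and 7 higher on MCD, with a median log2 change of -0.02, and 4 were under an unadjusted p of 0.05, 3 of them lower. Olig1 and Olig2, transcription factors of the whole lineage, had changes of -0.17 each (adjusted p = 0.104 and 0.758 by edgeR). Ptprz1, a receptor phosphatase of precursors and astrocytes, had 0.06 and Cacng4 0.06. Of 18 genes of differentiating and newly formed oligodendrocytes 16 were in the table, 13 of them fitted lower, with a median of -0.05 and 1 under an unadjusted p of 0.05; the most abundant, Nfasc, Sirt2 and Fyn, had changes of -0.03, -0.10 and -0.04.

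Of 45 further genes of myelin and mature oligodendrocytes 42 were in the table, 32 fitted lower and 10 higher on MCD, with a median log2 change of -0.10, against 0.00 over all genes. At an unadjusted p under 0.05 there were 10 of these genes, 9 of them lower, beside 746 of all 15759 genes, 354 of them lower. Plekhb1 and Tppp had changes of 0.02 and 0.03. Of 19 enzymes of myelin lipid synthesis, 16 were fitted lower, with a median of -0.06 and 5 under an unadjusted p of 0.05, all lower. The cholesterol enzymes Fdft1 and Hmgcs1 had changes of -0.15 and -0.13 (adjusted p = 0.332 and 0.486), and Sqle had -0.07.

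Markers of other cells were read beside the diet result. Of all 15759 genes, 48.3% were fitted lower on MCD and 746 were under an unadjusted p of 0.05 (edgeR). All 5 genes of red blood cells were fitted lower on MCD, by a median of -1.45 on the log2 scale, with none called (adjusted p = 0.0712 for Hbb-bt, the lowest). Their summed level ranged from 76.6 to 1518 CPM on control diet and from 43.6 to 395 CPM on MCD. Of 10 astrocyte markers 7 were fitted higher on MCD (summed level 3343 to 4568 CPM on control and 3438 to 4677 CPM on MCD), and 6 were under an unadjusted p of 0.05, 4 higher and 2 lower, with Agt at 0.16 (adjusted p = 0.104, edgeR) and Aqp4 at -0.18 (0.164). Of 8 endothelium markers 5 were fitted higher, with a median of 0.01 and 2 under an unadjusted p of 0.05, both higher, and of 8 microglia markers 7 were fitted lower (151 to 224 CPM and 156 to 249 CPM). Of 12 SCN neuron markers 9 were fitted higher on MCD, with a median of 0.11 and none called; 4 were under an unadjusted p of 0.05, all higher, Vip at 0.23 and Rgs16 at 0.16 among them. All 5 listed genes of ependyma and choroid plexus were fitted lower, with a median of -0.08 and none under an unadjusted p of 0.05 (edgeR). The part of these cells in the result for Gpr17 was not tested.

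The call on Gpr17 held in each of 36 fits that left out 1 library, with adjusted p from 0.000514 to 0.0119. It held in males alone (-0.38, adjusted p = 0.0178). Without the libraries numbered 1, a male of every group but control CT8, whose males carry no number in the table, the change was -0.39 with adjusted p = 0.1004, and without those numbered 2 it was -0.28 with adjusted p = 1. In females the fitted change was -0.28 ± 0.10 and in males -0.38 ± 0.07. The interaction of sex and diet called 0 of the 9 members (edgeR, 0 at an unadjusted p under 0.05) and 0.0% of all genes. Of all genes, 826 were under an unadjusted p of 0.05 in that test. DESeq2 called 1 gene, which was not Gpr17. The DESeq2 values of the other members were not recorded for this interaction.

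On the GRCm38 annotation Gpr17 lies on the minus strand of chromosome 18, and 188 of its exon bases are shared with Lims2, a gene on the other strand. Lims2 measured 8.09 CPM, with a diet change of -0.16 ± 0.13 (adjusted p = 1), and how strand was used in counting is not given in the sources used here. The deposited exon bins held 2 bins of Gpr17, whose sum was 0.54 of the gene count in the median, so the bins miss a large part of it. The sum and the gene count had r = 0.999 over 34 libraries. Libraries differ in depth, which can raise such an r. With gene counts rebuilt from exon bins, an alternative chosen after seeing the data, the change of Gpr17 was -0.35 with adjusted p = 0.0155 and that of Bcas1 was -0.39 with adjusted p = 0.0264.

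The exon bins also allowed a test of whether the diet shifted the use of exons within a gene, with edgeR's diffSpliceDGE. Gpr17 could not be tested, having fewer than 2 bins past the filter on low counts. Of the other 8 members, with 4 to 26 bins each, edgeR called 0, beside 0.0387% of 12916 genes called, and 0 had an unadjusted p under 0.05. The lowest unadjusted p, from the same edgeR test, was 0.291 for Mbp.

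The second question was whether the genes varied with circadian time, asked with a 24 h cosine and sine in the logarithm of the level over both diets. Gpr17, Cnp and Opalin passed, 3 of 9 members, beside 34.4% of all genes, so the share is near the background. The same 3 were called by DESeq2. Over both diets Gpr17 averaged 24.6 ± 3.09 CPM at CT8 (SD, n = 6) and 40.1 ± 8.90 CPM at CT16, with a fitted peak at 16.7 h and a peak 1.48 times the trough (adjusted p = 6.4e-06, edgeR). Cnp averaged 163 ± 20.3 CPM at CT0 and 110 ± 17.3 CPM at CT12, with a fitted peak at 0.151 h, 1.38 times the trough (adjusted p = 3.5e-05). Opalin averaged 8.02 ± 0.792 CPM at CT4 and 4.02 ± 1.72 CPM at CT16, with a fitted peak at 3.16 h, 1.92 times the trough (adjusted p = 0.00367).

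Single libraries showed these differences to unequal degrees. The 6 libraries of Cnp ran from 135 to 190 CPM at CT0, from 133 to 169 CPM at CT4, from 122.8 to 162 CPM at CT8, from 92.4 to 141 CPM at CT12, from 115 to 164 CPM at CT16 and from 132 to 155 CPM at CT20. Its lowest CT0 library thus stood under its highest CT12 library, control CT12 replicate 2 at 141 CPM, and above the other 5. For Opalin the 6 libraries ran from 6.74 to 9.16 CPM at CT4, from 3.27 to 11.7 CPM at CT12 and from 2.80 to 7.42 CPM at CT16, the highest at CT12 again being control replicate 2. The call on Opalin was lost without the libraries numbered 1 (adjusted p = 0.0829) and held in each fit that left out 1 library. In the mean over both diets Gpr17 was highest at CT16, where Opalin was lowest; on MCD alone Gpr17 was highest at CT12, at 35.96 CPM against 32.4 CPM at CT16.

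**Figure D4:**
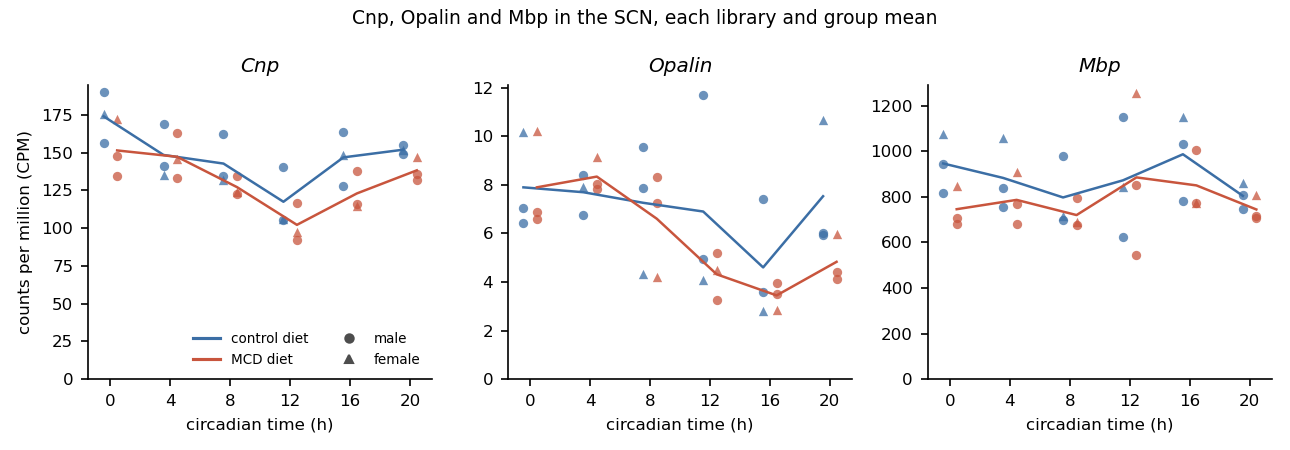
Cnp, Opalin and Mbp in the SCN by circadian time (CPM on linear axes from 0), one symbol per library (circles male, triangles female), control diet in blue and MCD in red, lines through the group means of 3 libraries. Cnp is lowest at CT12 and Opalin at CT16 in the mean over both diets, while Mbp, with a fitted peak 1.09 times its trough, passed no test of rhythm.

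The other 6 members were not called. Their fitted peak stood at 1.05 times the trough for Mal, 1.09 for Mbp, 1.14 for Mobp, 1.15 for Mag, 1.16 for Mog and 1.17 for Bcas1, with adjusted p from 0.209 for Bcas1 upward. The rhythm did not differ between diets past the threshold for any member: edgeR called 0 of 9, against 0.0127% of all genes. Gpr17 was the only member under an unadjusted p of 0.05 (adjusted p = 1 by edgeR). DESeq2 called none of the 8 members with a value, Opalin having none. The fitted peak of Gpr17 was at 18.1 h with a log2 range of 0.74 on control diet and at 14.6 h with a log2 range of 0.53 on MCD.

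Dnajc7, a cochaperone gene on the strand opposite to Cnp, shares 154 exon bases with it on GRCm38. Dnajc7 measured 168.5 CPM and was itself called for rhythm, with a fitted peak at 20.3 h and a log2 range of 0.31, against 0.46 for Cnp. Reads from the shared bases cannot be assigned without strand. Among marker lists, 10 of 12 SCN neuron genes, 4 of 5 red blood cell genes, 4 of 5 genes of ependyma and choroid plexus, 5 of 10 astrocyte genes, 3 of 8 microglia genes, 1 of 8 endothelium genes, 1 of 6 genes of other hypothalamic neurons and 1 of 2 Schwann cell genes were called for rhythm, beside 34.4% of all genes. The 4 called genes of ependyma (Ccdc153, Tmem212, Rarres2 and Enkur) had fitted peaks from 3.18 h to 4.58 h, near the 3.16 h of Opalin, and their list had a mean summed level of 229.9 CPM at CT4 and 143.6 CPM at CT12. The mean summed level of microglia genes was 207 CPM at CT0 and 165 CPM at CT12. Their part in the rhythm of Cnp and Opalin was not tested.

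Promoters are shown for Cnp and Opalin, the myelin members that varied with time and for which RefSeq start sites were at hand. Of the 9 members 6 matched the RefSeq promoter table on GRCm38.p6 (Mal, Mag, Mobp, Cnp, Mog and Opalin, with 8 windows in all); Gpr17, Bcas1 and Mbp had no entry. Each window runs from 250 bases before the start site to 50 after it, on the strand of the gene, 5′ to 3′. Capitals mark the E-box CANNTG, bound by clock proteins and by Olig factors, the SOX core ACAANG and the core CTGGCAC of the myelin regulator Myrf, each searched on both strands. The Cnp window is chr11:100574689-100574988, plus strand, and the Opalin window chr19:41077064-41077363, minus strand.
Cnp: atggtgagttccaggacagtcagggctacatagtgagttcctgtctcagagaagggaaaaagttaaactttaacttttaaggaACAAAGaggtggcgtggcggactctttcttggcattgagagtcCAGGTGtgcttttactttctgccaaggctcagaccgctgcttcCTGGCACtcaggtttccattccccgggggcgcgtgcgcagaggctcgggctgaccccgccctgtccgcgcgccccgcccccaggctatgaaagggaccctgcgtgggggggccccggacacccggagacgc
Opalin: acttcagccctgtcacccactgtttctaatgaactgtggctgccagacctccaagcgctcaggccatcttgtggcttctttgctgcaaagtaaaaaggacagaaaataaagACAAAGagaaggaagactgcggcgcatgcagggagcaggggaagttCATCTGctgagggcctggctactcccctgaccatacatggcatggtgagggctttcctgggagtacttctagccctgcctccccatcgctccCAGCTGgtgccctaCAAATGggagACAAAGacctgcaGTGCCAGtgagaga

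The Cnp window held 1 E-box, 1 SOX core and 1 Myrf core, at positions -124, -167 and -81 from the start site. The Opalin window held 3 E-boxes, 2 SOX cores and 1 Myrf core, which began 36 bases after the start site. The clock-type E-box CACGTG, a special case of CANNTG, was in none of the 8 windows and in 7.15% of 32851 promoters. CANNTG was in 5 of 8 windows and in 72.3% of all promoters, ACAANG in 7 of 8 and in 41.2%, and CTGGCAC in 4 of 8 and in 5.01%. Of the 3 Mag windows 2 overlap and share 1 CTGGCAC match. A match is a string of letters and says nothing of binding in these mice.

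The list genes with a called rhythm were read beside the members. Rhythm was called for 7 of 16 precursor genes, 5 of 16 differentiating genes, 15 of 42 myelin genes and 7 of 19 lipid enzymes, beside 34.4% of all genes. Olig2 had a log2 range of 0.96 with a fitted peak at 20.5 h, Sox10, a master regulator of the lineage, 0.41 at 20.2 h, and Nkx2-2 0.45 at 20.6 h. Nkx6-2, a factor of mature oligodendrocytes, had a range of 1.01 with a peak at 23.3 h, and Myrf, which turns on myelin genes, 0.67 at 20.7 h. Cryab, a small heat shock protein, had 0.74 at 20.6 h, Ugt8a, the enzyme of galactosylceramide, 0.76 at 7.09 h, and Efnb3 0.50 at 1.53 h. Fdft1, Fdps and Sqle, enzymes of cholesterol synthesis, had 0.64 at 19.4 h, 0.51 at 20.7 h and 0.44 at 17.7 h. Of the differentiating genes, Fyn had 0.42 at 18.3 h, Sirt2 0.18 at 22.6 h and Sema5a 0.45 at 15.0 h. Each of the genes named here passed the test over all genes (adjusted p from 4.3e-10 for Nkx6-2 to 0.0295 for Sema5a, edgeR).

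Sex was the remaining factor of the design. Every female library carries the replicate number 3 and no male library does, so sex and replicate number cannot be told apart. None of the 9 members differed between 12 female and 24 male libraries past the threshold, beside 9.89% of all genes (edgeR), and 4 had an unadjusted p under 0.05, as had 4041 of all 15759 genes. Bcas1 measured 82.8 ± 18.8 CPM in females and 70.5 ± 14.4 CPM in males (log2 difference 0.22 ± 0.08, adjusted p = 0.0747), and DESeq2 called it. Mbp measured 916 ± 179 against 796 ± 141 CPM and Mobp 343 ± 87.5 against 286 ± 55.9 CPM, while Mag, at 24.5 ± 6.37 against 27.8 ± 4.31 CPM, had the lower mean in females. Adjusted p for those 3 was 0.157, 0.177 and 0.142. Among list genes, Plekhb1 was higher in females (0.32, adjusted p = 0.00151), as were Olig1, Neu4 and Nkx6-2, and Efnb3, Sema5a, Hmgcs1 and Sptlc2 were lower.

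The last comparison within the SCN was among the genes themselves: whether libraries of one group that were high in one member were high in the others. Each log2 level was taken as its deviation from the mean of its group of diet and time, and 36 pairs of members were correlated over 36 libraries, with permutations that shuffled values only within a group, since the deviations of a group sum to 0. Bcas1, Mbp and Mobp moved together most closely, with r = 0.94 for Mbp and Mobp (Spearman's rho 0.93; permutation p = 1e-05 for both, the smallest that 100000 permutations can give, or 0.00012 each adjusted over the 36 pairs), 0.92 for Bcas1 and Mbp, and 0.87 for Bcas1 and Mobp. For Mbp and Mobp, r was 0.91 without the 2 libraries farthest out. Among the 8 members other than Gpr17, r ranged from 0.07 to 0.94 with a median of 0.50, and 16 of 28 pairs had an adjusted permutation p under 0.05. Mag had low correlations with that trio, with r of 0.07 with Bcas1, 0.14 with Mbp and 0.07 with Mobp. Within males they were 0.44, 0.45 and 0.35, within MCD libraries 0.34, 0.39 and 0.33, and within controls -0.13, -0.12 and -0.17, differences that were not tested. The deviations were not adjusted for sex, and the mean of Mag was lower in females while those of the trio were higher.

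The correlations of Gpr17 were weaker. Its r with the other 8 ran from -0.18 with Opalin to 0.19 with Cnp, and 0 of 8 pairs had an adjusted permutation p under 0.05. Within control libraries these r ran from 0.06 to 0.43 and within MCD libraries from -0.54 to 0.20. Within males the 8 values ran from -0.12 to 0.26, and the 28 values among the other members from 0.33 to 0.93. In single libraries, control CT12 replicate 2 was the highest of all 36 for 3 members, and MCD CT12 replicate 3 for 2 of them. Summed over the 9 genes, libraries ran from 1031 CPM in MCD CT12 replicate 1 to 2166 CPM in MCD CT12 replicate 3, so the extremes came from the same group.

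**Figure D5:**
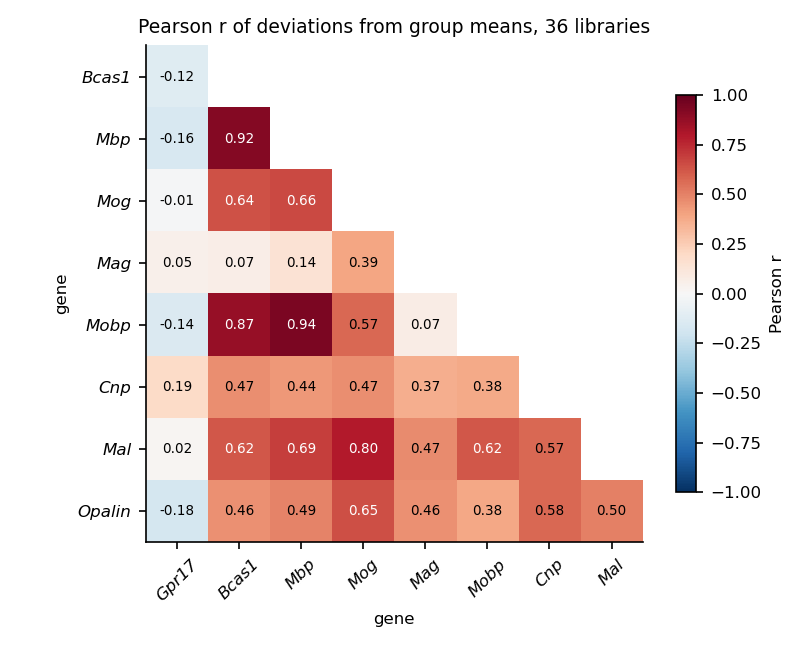
Pearson r between members over 36 SCN libraries, each log2 level taken as its deviation from the mean of its diet and time group (colour scale from -1 to 1). The column of Gpr17 lies between -0.18 and 0.19, while Bcas1, Mbp and Mobp reach 0.87 to 0.94 with each other.

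Genes outside the 9 that followed them were sought by correlation of log2 levels over the 36 libraries, which share diets, times and depth, so the values are a description. Among the genes that followed the mean of the 7 myelin genes most closely were Cldn11, the claudin of myelin (r = 0.71), C1qc (0.66), Shisa4 (0.65) and Csf1r (0.63); C1qc and Csf1r are microglia genes. Among those that followed the mean of Gpr17 and Bcas1 were Kcnj10, a potassium channel of glia (0.74), Car2, a carbonic anhydrase of oligodendrocytes (0.71), Desi1 (0.70) and Rpe (0.65). Kcnj10 had a diet change of -0.20 with the adjusted p of Bcas1, 0.0543.

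In the liver, which holds no oligodendrocytes, 46.6% of 20249 tested genes were called for diet. Cnp, which many tissues express at a low level, fell from 17.5 ± 4.21 CPM on control diet to 11.0 ± 1.13 CPM on MCD (SD, n = 18 each), a log2 change of -0.64 ± 0.05 (SE; adjusted p = 3.18e-10, edgeR). The controls ran from 10.2 to 24.5 CPM (median 17.3) and the MCD libraries from 8.05 to 12.3 CPM (median 11.3). Thus 17 of 18 controls lay above the highest MCD library. How many liver genes were so separated was not counted. With libraries scaled by their totals alone the change of Cnp was -0.37 (adjusted p = 1.66e-06, edgeR). Mbp rose from 1.18 ± 0.433 to 1.696 ± 0.864 CPM (0.51 ± 0.18, adjusted p = 0.0235), with 27 to 348 counts per library. That call was lost in each fit that left out the libraries of 1 replicate number (adjusted p from 0.0578 to 0.177), and without MCD CT0 replicate 3 (0.0617), MCD CT4 replicate 1 (0.0580) or MCD CT12 replicate 2 (0.0648). It was also lost with a term for the kind of library, read from the level of the mitochondrial gene mt-Nd6 (0.47, adjusted p = 0.0503), an alternative chosen after seeing the data. Of the control libraries, CT8 a had 239 Mbp counts and the others 27 to 98; without it the change of Mbp was 0.60 (adjusted p = 0.00617) and that of Cnp -0.67.

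Mag and Mal, at means between 0.312 and 0.524 CPM on either diet, were not called (adjusted p = 0.223 and 0.236). Gpr17 was listed at 0 in 18 of 36 liver libraries and at 6 to 76 counts in the others, and whether such a 0 means that no read was seen or is an estimate of 0 is not given in the sources used here; its fitted change, -1.90 ± 0.97, was not called (adjusted p = 0.112). Bcas1 was listed at 0 in 27 libraries, with at most 13 counts, and was left out by the filter. Tests were made within each tissue's own table, so no difference between the SCN and liver was tested. Only Cnp had more than a trace in both tissues: it was called lower on MCD in liver, and in the SCN its change of -0.16 was not called.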

How the data were processed

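Poly(A) RNA was sequenced from the SCN and liver of mice on MCD or control diet, 36 libraries per tissue, 3 per group of diet and time. The deposited tables hold whole-number counts per gene, not normalized, and, for the SCN, counts per exon bin. The submitters' processing notes name Trimmomatic, HISAT2, StringTie, DESeq2 and GRCm39, with no role; how reads were counted, with which annotation and whether by strand, is not given in the sources used here. The gene counts may therefore be estimates made whole. Columns were matched to samples by name; 2 control CT8 male columns of each gene table carry the same name and are called a and b. The members and lists were chosen with earlier results of these data known.

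Genes with a count of at least 10 in enough libraries (edgeR's filterByExpr; all 15759 SCN genes and 20249 liver genes) were fitted with edgeR 4.0.16 (R 4.3.3), TMM scaling, the 12 groups and sex over all 36 libraries of a tissue, and robust quasi-likelihood F tests. Contrasts were the mean diet effect over 6 times, the effect at each time, their interaction, a 24 h cosine and sine, its difference by diet, sex, and sex by diet. Adjusted p is Benjamini-Hochberg over all genes of a tissue, and a call is an adjusted p under 0.05. Exon use was tested with diffSpliceDGE (Simes). Levels are TMM-scaled CPM, and log2 CPM for correlations has a prior count of 2. Scripts were tested on simulated data.

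From the lists, the text names the 3 most abundant genes and up to 5 genes called for diet, 5 for rhythm and 3 for sex, by lowest p, and the 5 genes most correlated with each mean of members. Some genes that this rule selects are not reported here. Alternatives were DESeq2 1.42.0 and its size factors, library totals, no filter, males alone, a replicate block, and leaving out each replicate number and each library. Replicates of a group differed by more than counting noise in every pair. Precision rests on 23347789 to 79812461 counts per SCN library.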

Additional observations from a re-analysis of the deposited data

How the results depend on the processing

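Of 3190 alternative values of single genes, 3130 were counted as the same. This meant the same sign and side of the threshold for a change, the same side for an adjusted p alone, or a similar fitted range or peak. Most of these results were not called in the main fit, and most alternatives left out only 1 library. The share is therefore no measure of how firm a call is. The diet call on Gpr17 was lost without the libraries numbered 1 and without those numbered 2. DESeq2 called 48 genes for diet in the SCN against 10, 88 gene and time combinations against 10, 11 genes for diet by time against 2, 8 for a rhythm difference against 2, and 1 for sex by diet against 0; the cause was not tested. Library totals gave 6 calls at single times and 1 for diet by time. Counts from exon bins gave 5 at single times and 1 each for diet by time and the rhythm difference, and males alone gave 1 for the rhythm difference. A gene-level F test gave 2 genes for exon use against 5.

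The replicate numbers are not stated to mark shared animals or days. Same-numbered libraries of the diets had deviations correlated from -0.09 to 0.28 over 16 pairs, 8 of them over 0.1 and 0 under -0.1; since not every pair was over 0.1, the numbers were not taken to pair the samples. That 9 of 15 MCD libraries were closest to their own number is a hint from the data, not the design. With the replicate number as a block, which leaves out the 2 unnumbered control CT8 males, 4 genes were called for diet, 1 for diet by time and 1 for the rhythm difference, and the change of Mobp was 0.068. Gpr17 had an adjusted p of 0.0450 in that fit.

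Leaving out replicates gave 0 to 17 genes for diet: 2 without replicate 1, 0 without replicate 2, 16 without control CT0 replicate 3 and 17 without control CT16 replicate 3. Calls at single times ran from 3 to 14, for diet by time from 0 to 5, for the rhythm difference from 1 to 5, for exon use from 3 to 4, for rhythm from 2703 (without replicate 2) to 5873, and for sex from 20 (without replicate 1; the cause was not tested) to 2377. Changes that were not called and turned sign ran from -0.41 to 0.12 (Bcas1 at CT12), from -0.079 to 0.17 (Gpr17 at CT12), from -0.066 to 0.068 (Mobp), from -0.13 to 0.022 (Mog by sex) and from -0.21 to 0.015 (Opalin by sex). Low counts limit Opalin in the SCN and Mbp, Mag, Mal, Gpr17 and Bcas1 in liver.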
